A study of Mus musculus with 4 samples.

Results

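Transcripts of 10 genes of the Bcl2 family were measured in E14 mouse embryonic stem cells given all-trans retinoic acid (ATRA) at 1 µM for 24 h and in cells sampled at 0 h. The genes were chosen by symbol, and all 10 were found among the 23420 genes of the count tables and passed the filter on low counts, as did 14256 genes in all. They comprise 3 genes of anti-apoptotic proteins (Bcl2, Bcl2l1 and Mcl1), 2 genes of pro-apoptotic effectors (Bax and Bak1) and 5 genes of BH3-only proteins (Bcl2l11, Bbc3, Pmaip1, Bid and Bad). E14 is a wild-type line, kept free of feeder cells on gelatin in serum medium with leukemia inhibitory factor, and whether that factor was present during the 24 h is not stated. The 24 h group and the 0 h group each had 2 libraries, labelled replicates 1 and 2. The control was sampled at 0 h, so ATRA and 24 h of culture cannot be told apart. The vehicle was dimethyl sulfoxide, and its use in the 0 h cells is not stated. The labels give a micromolar concentration in the titles and a millimolar unit in a treatment field, and the titles were followed. Whether replicates were separate cultures is not stated either, so the p-values reflect the spread between these libraries alone, which could be technical.

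The Bcl2 family decides whether the outer mitochondrial membrane stays closed. Bax and Bak form pores in that membrane through which cytochrome c leaves and starts the caspase cascade, and Bcl-2, Bcl-xL and Mcl-1 hold them in check. BH3-only proteins sense stress and either bind the anti-apoptotic proteins or engage Bax and Bak directly. In mice, loss of Mcl1 is lethal around implantation, and embryonic stem cells are known to undergo apoptosis readily after DNA damage.

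Promoter windows are shown for Mcl1 and Bid, the genes that changed once counts were corrected for base composition, and for Bax, an effector whose difference was much smaller after that correction. Each run is the 250 bases before a transcription start in RefSeq (GRCm38.p6), 5′ to 3′ on the gene's strand, and capitals mark the letters GGGCGG (GC box) on either strand. The windows lie at chr3:95658471-95658720 (plus strand) for Mcl1, chr6:120916825-120917074 (minus strand) for Bid and chr7:45466899-45467148 (minus strand) for Bax.
Mcl1: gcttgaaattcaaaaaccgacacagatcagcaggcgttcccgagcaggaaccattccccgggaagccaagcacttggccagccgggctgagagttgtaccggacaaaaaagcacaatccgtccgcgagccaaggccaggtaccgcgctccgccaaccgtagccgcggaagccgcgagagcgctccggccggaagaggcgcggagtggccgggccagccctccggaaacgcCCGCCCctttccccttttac
Bid: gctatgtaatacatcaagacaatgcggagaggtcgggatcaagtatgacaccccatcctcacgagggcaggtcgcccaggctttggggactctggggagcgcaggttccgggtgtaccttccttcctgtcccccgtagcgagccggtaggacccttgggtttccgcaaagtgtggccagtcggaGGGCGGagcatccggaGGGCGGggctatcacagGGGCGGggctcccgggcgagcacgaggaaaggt
Bax: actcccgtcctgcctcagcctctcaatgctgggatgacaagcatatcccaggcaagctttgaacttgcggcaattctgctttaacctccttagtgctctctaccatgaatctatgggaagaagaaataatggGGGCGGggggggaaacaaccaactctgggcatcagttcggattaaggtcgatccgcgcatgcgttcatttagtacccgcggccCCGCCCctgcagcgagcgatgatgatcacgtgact
The Mcl1 window held 1 GC box, the Bid window 3 and the Bax window 2. RefSeq gave 15 such windows for 9 of the 10 genes, and 10 of the 15 held a GC box, against 32.7% of 32851 windows of the same length over all genes. Some windows of the same gene overlap and are not independent. The letters AGGTCA, a half-site of retinoic acid receptors, were searched on both strands and occurred in 1 window, that of the start of Bcl2l1 at chr2:152828490-152828739, against 14.0% of all windows. CCAAT was found in 4 of the 15 windows, TATAAA in 0 and TGACGTCA (cAMP response element) in 0, against 33.8%, 12.4% and 1.55% of all windows.

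Counts assigned to genes were 13337972 and 11086233 in ATRA replicates 1 and 2, against 31005634 and 21484812 in control replicates 1 and 2. Counting noise did not cover the difference between replicates (chi-square divided by its degrees of freedom, 76.9 for the ATRA pair and 9.65 for the control pair). The ATRA replicates differed from each other along the GC content of transcripts, as the plot of fold change by GC content shows. Across 14137 genes, which share the same 4 libraries, the fold change and the GC content had a Spearman's rho of −0.745, given as a description. Values are therefore given without and with a correction of each library for GC content, which takes out any GC-related difference, whatever its source. The correction brings each library to the mean GC trend of the 4 libraries, so corrected values compare libraries and not the levels of different genes. The retinoic acid response was present in both ATRA libraries: all 7 listed target genes rose, with Stra8 at 308 and 375 CPM (read counts scaled to library size) in ATRA replicates 1 and 2, against 1.88 and 2.45 CPM in control replicates 1 and 2. All 8 stem cell markers had counts, 3 fell and 0 rose, and 6 fell after GC correction. Beside these marker counts and those below, 1.13% of all genes tested were called without GC correction and 16.2% with it. Summed markers of extraembryonic endoderm (5 of 7 tested) were at 52.9 and 79.9 CPM in the ATRA libraries, against 25.5 and 25.9 CPM in the controls, with 0 of 5 called and 4 rising after GC correction. Summed fibroblast markers (7 of 8 tested) were at 120 and 115 CPM in the ATRA libraries, against 226 and 165 CPM in the controls, and Col1a1 made up much of the difference, at 40.1 and 24.1 CPM with ATRA, against 141 and 91.9 CPM in the controls. None of the 7 was called (0 higher, 0 lower), and 3 had an unadjusted p under 0.05 in edgeR, against 41.7% of all genes. After GC correction 2 rose (Pdgfrb and Dcn) and 0 fell. The log2 fold change of Col1a1 was −1.86 without and −0.14 with GC correction. Summed neural markers (6 of 7 tested) were at 311 and 423 CPM in the ATRA libraries, against 401 and 339 CPM in the controls, with members moving both ways. Sox1 rose, at 23.8 and 30.7 CPM with ATRA against 1.60 and 1.56 CPM in the controls, Tubb3 fell, and after GC correction 3 neural markers rose and 1 fell. No marker of these lists was at 0 in all libraries, and their part in the results was not tested. In bulk RNA, fewer cells of a type and less RNA per cell cannot be told apart.

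Of the 10 Bcl2 family genes, 0 passed the test between ATRA and control without GC correction (edgeR's quasi-likelihood F test, Benjamini-Hochberg adjusted over 14256 genes, threshold 0.05), where 1.13% of all genes passed, 0.723% higher and 0.407% lower. After GC correction the anti-apoptotic gene Mcl1 rose and the BH3-only gene Bid fell, 2 of 10 genes, against 16.2% of all genes called with the same correction, 8.52% higher and 7.67% lower. The share of the family called is near that of all genes. Without GC correction, leaving out ATRA replicate 1 gave 8 called family genes, against 69.0% of all genes, and leaving out ATRA replicate 2 gave 6, against 48.9%. Leaving out control replicate 1 gave 0, against 0.874% of all genes, and leaving out control replicate 2 gave 2, against 4.59%. At an unadjusted p under 0.05 in edgeR, 1 gene was higher and 5 lower without correction. Of all genes, 41.7% were under it in either direction (18.9% higher and 22.8% lower). With correction 6 genes were under it, 1 higher (Mcl1) and the 5 BH3-only genes lower. Of all genes, 38.2% were under it with correction (19.7% higher and 18.5% lower). DESeq2 called 1 gene higher and 5 lower, against 30.5% of all genes (12.5% higher and 18.0% lower). The median log2 fold change was −1.04 over the 10 genes, against −0.02 over all genes tested, and after GC correction −0.38 against 0.01. The 2 ATRA libraries lay outside the range of the 2 control libraries for all 10 genes, 3 higher and 7 lower, and the same held for 81.4% of all genes tested (40.0% higher and 41.5% lower). After GC correction 2 lay above and 6 below the controls, against 70.3% of all genes (35.9% higher and 34.4% lower).

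Mcl1, on the plus strand of chromosome 3 from 95658788 to 95663176 (GENCODE M21, GRCm38), encodes a short-lived anti-apoptotic protein. It was at 1130 and 1870 CPM in ATRA replicates 1 and 2, against 520 and 541 CPM in control replicates 1 and 2. Both ATRA libraries were more than 2-fold above both controls, and ATRA replicate 2 was the highest. Its log2 fold change was 1.50 ± 0.34 (SE, n = 2 against 2) with an edgeR adjusted p of 0.0662. After GC correction it was at 1110 and 1710 CPM in the ATRA libraries, against 553 and 565 CPM in the controls, and rose 2.52-fold (log2 fold change 1.33 ± 0.21, edgeR adjusted p = 0.0232). The 1495 tested genes whose GC content lay within 1 percentage point of that of Mcl1 (48.7%) had a median log2 fold change of 0.19 without correction. The corrected call was lost without control replicate 1 (1.31, edgeR adjusted p = 0.179) or control replicate 2 (1.34, 0.158), where 0.245% and 0.173% of all genes passed.

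Bcl2l1, which encodes Bcl-xL, lies on chromosome 2 from 152780668 to 152831728, minus strand. It was at 61.8 and 25.5 CPM in ATRA replicates 1 and 2, against 81.8 and 73.3 CPM in control replicates 1 and 2. The low value was that of ATRA replicate 2, and both ATRA libraries were below both controls. The direction turned with the correction, to 65.7 and 56.4 CPM in the ATRA libraries, against 51.5 and 49.7 CPM in the controls. The log2 fold change was −0.83 ± 0.45 (edgeR adjusted p = 0.196) without and 0.27 ± 0.13 (edgeR adjusted p = 0.185) with GC correction. With an ATRA library left out, Bcl2l1 was at −1.62 (without replicate 1) and −0.32 (without replicate 2), both uncorrected. It was at 0.38 with GC correction and without ATRA replicate 2. In these fits the ATRA group is a single library, whose spread is not measured.

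Bcl2, the founding anti-apoptotic member, lies on chromosome 1 from 106538178 to 106714274, minus strand, and was low throughout. It had 81 and 74 counts (5.73 and 7.63 CPM) in the ATRA libraries, against 151 and 73 counts (4.73 and 3.25 CPM) in the controls. The ATRA libraries were above the controls, and after GC correction the groups overlapped. Its log2 fold change was 0.73 ± 0.38 without and 0.26 ± 0.28 with GC correction, and it did not pass in either fit (edgeR adjusted p = 0.189 and 0.521). Its exons share 558 bases with an antisense gene that is not among the counted genes, and the strand setting of the counting is not given in the sources used here.

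**Figure D1:**
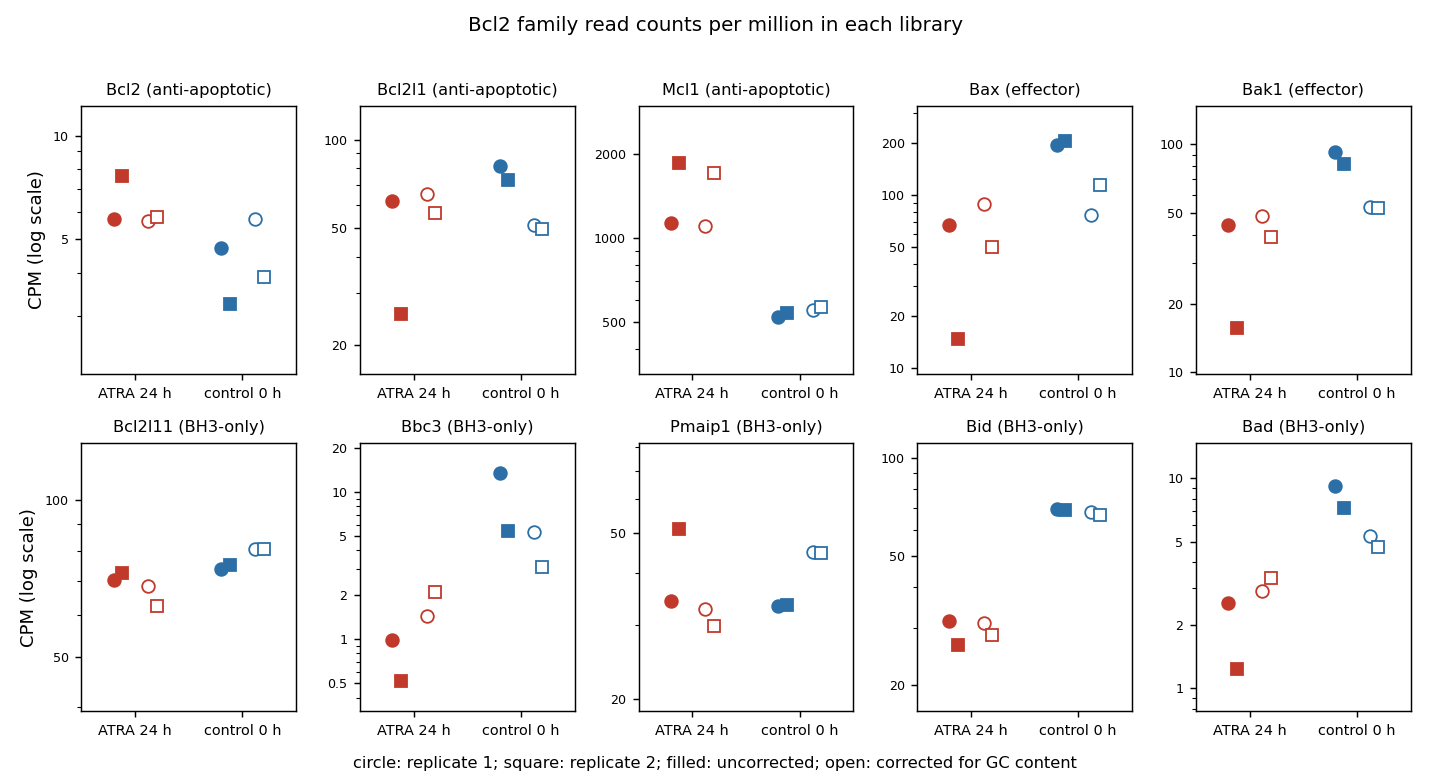
CPM (log scale) of the 10 genes in the ATRA libraries (red, left) and the 0 h controls (blue, right). Circles are replicate 1, squares replicate 2, filled symbols uncorrected and open symbols corrected for GC content. Mcl1 stayed above the controls in both forms, and Bid, Bbc3, Bad, Bcl2l11 and Bak1 stayed below them. The distance between the groups for Bax and Bak1 was smaller in the open symbols.

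Bax and Bak1, the genes of the pore-forming effectors, did not pass in either fit. Bax, on chromosome 7 from 45461697 to 45466898, minus strand, had 948 and 143 counts in ATRA replicates 1 and 2, against 6236 and 4643 counts in control replicates 1 and 2. In CPM these are 67.0 and 14.7 with ATRA, against 195 and 207 in the controls. The controls lay close together and the ATRA replicates far apart, with replicate 2 at a log2 ratio of −2.18 to replicate 1. The log2 fold change was −2.29 ± 0.67 (edgeR adjusted p = 0.0790), and the 127 genes of like GC content (63.5% ± 1 percentage point) had a median of −2.03. The log2 fold change of Bax was −3.78 without ATRA replicate 1, −1.57 without ATRA replicate 2 and −2.26 without control replicate 2. In each of these fits 1 group is a single library, whose spread is not measured. After GC correction Bax was at 88.8 and 50.1 CPM in the ATRA libraries, against 77.2 and 115 CPM in the controls. The correction moved the control replicates, at 195 and 207 CPM before it, further apart. The groups overlapped after correction, and the log2 fold change was −0.46 ± 0.32 (edgeR adjusted p = 0.336). It was between −0.93 without ATRA replicate 1 and −0.08 without ATRA replicate 2. A further annotated gene shares 192 bases of Bax exons on the same strand.

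Bak1, on chromosome 17 from 27019810 to 27029009, minus strand, was at 44.1 and 15.7 CPM in ATRA replicates 1 and 2, against 92.1 and 81.9 CPM in control replicates 1 and 2. As with Bax, ATRA replicate 2 was the lowest library. The log2 fold change was −1.53 ± 0.50 (edgeR adjusted p = 0.0871) without and −0.26 ± 0.14 (edgeR adjusted p = 0.236) with GC correction, and 1244 genes of like GC content (57.1%) had a median of −1.30 without correction. Bak1 was at −2.49 without ATRA replicate 1 and −0.97 without ATRA replicate 2. With GC correction these values were −0.42 and −0.12. Each of these fits rests on a single ATRA library. The antisense neighbour Ggnbp1 shares exon bases with Bak1. It had 11 and 3 counts in the ATRA libraries, against 222 and 104 in the controls, which is few beside the counts of Bak1.

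Bid encodes a BH3-only protein that caspase-8 cleaves to link death receptors to mitochondria, and lies on chromosome 6 from 120891930 to 120916853, minus strand. It was at 31.5 and 26.5 CPM in ATRA replicates 1 and 2, against 69.4 and 69.0 CPM in control replicates 1 and 2. Replicates of both groups lay close together, and no value of one group came near the other. Its log2 fold change was −1.25 ± 0.28 (edgeR adjusted p = 0.0649) without correction, and after GC correction it fell 2.27-fold (log2 fold change −1.18 ± 0.12, edgeR adjusted p = 0.0110). The corrected levels were 31.1 and 28.4 CPM with ATRA, against 68.0 and 66.7 CPM in the controls. Its GC content is 50.4%, and 1509 genes of like GC content had a median log2 fold change of −0.04 without correction. The corrected call was lost without control replicate 1 (−1.18, edgeR adjusted p = 0.151) or control replicate 2 (−1.21, 0.141). Bid shares 628 exon bases with the antisense family gene Bcl2l13, which was at 95.5 and 75.2 CPM with ATRA, against 99.2 and 94.4 CPM in the controls, and did not pass (−0.18, or −0.26 after GC correction).

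Bbc3, on the plus strand of chromosome 7 from 16308393 to 16318205, encodes Puma, a BH3-only protein induced by p53. It had 14 and 5 counts in ATRA replicates 1 and 2, against 426 and 122 counts in control replicates 1 and 2. In CPM these are 0.990 and 0.516 with ATRA, against 13.4 and 5.43 in the controls. All ATRA values were below the controls, but the control replicates themselves differed by a log2 ratio of −1.30. The log2 fold change of −3.58 ± 0.66 (edgeR adjusted p = 0.0591) was the lowest of the 10 genes, and after GC correction it was −1.54 ± 0.44 (edgeR adjusted p = 0.0691). Bbc3 had the highest GC content of the 10, 65.2%, at which the 42 genes within 1 percentage point had a median of −2.10. Bbc3 passed in 5 of the 16 alternatives. With DESeq2 size factors in place of the TMM factors, the edgeR adjusted p was 0.0461, where 4.23% of all genes passed. DESeq2's own test gave an adjusted p of 7.78e-06 (30.5% of all genes). With the replicate block the edgeR adjusted p was 1.25e-06 (30.9%), and with the block and GC correction 0.0441 at −1.60 (18.5%). The last pass was without control replicate 2, at −4.09. Over the 16 alternatives its adjusted p was between 1.25e-06 and 0.398.

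Bad, whose protein binds Bcl-xL unless phosphorylated by growth factor signalling, lies on chromosome 19 from 6941861 to 6951899, plus strand. It had 36 and 12 counts (2.54 and 1.24 CPM) in the ATRA libraries, against 294 and 163 counts (9.22 and 7.26 CPM) in the controls. The groups did not overlap in either form. The log2 fold change was −2.08 ± 0.45 (edgeR adjusted p = 0.0650) and after GC correction −0.77 ± 0.25 (edgeR adjusted p = 0.0878). The antisense neighbour Gpr137, which shares 524 exon bases with Bad, had 54 and 13 counts with ATRA, against 304 and 164 in the controls, a level like that of Bad. With the strand setting not given, reads of the pair cannot be told apart where they overlap.

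Bcl2l11, which encodes Bim, and Pmaip1, which encodes Noxa, a BH3-only protein with a preference for Mcl-1, did not pass in either fit. Bcl2l11 lies on chromosome 2 from 128126038 to 128162547, plus strand, and was at 70.1 and 72.3 CPM with ATRA, against 73.6 and 75.1 CPM in the controls. Its log2 fold change was −0.06 ± 0.25, and −0.30 ± 0.11 after GC correction (edgeR adjusted p = 0.857 and 0.118). Pmaip1 lies on chromosome 18 from 66458533 to 66465565, plus strand, and was at 34.3 and 51.1 CPM with ATRA, against 33.4 and 33.5 CPM in the controls. Its direction turned, from 0.35 ± 0.32 on the log2 scale (adjusted p = 0.409 in edgeR) without GC correction to −0.51 ± 0.13 (edgeR adjusted p = 0.0533) with it. The corrected levels of Pmaip1 were 32.9 and 29.9 CPM in the ATRA libraries, against 45.0 and 44.7 CPM in the controls, so that the groups did not overlap. Without ATRA replicate 1, Pmaip1 was at 0.59 uncorrected and −0.58 corrected, and without ATRA replicate 2 it was at −0.44 corrected. Each of these fits rests on a single ATRA library. Counts are per gene, and the splice forms of Bcl2l11, Bcl2l1 and Mcl1, some of which act in opposite ways, were not told apart.

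**Figure D2:**
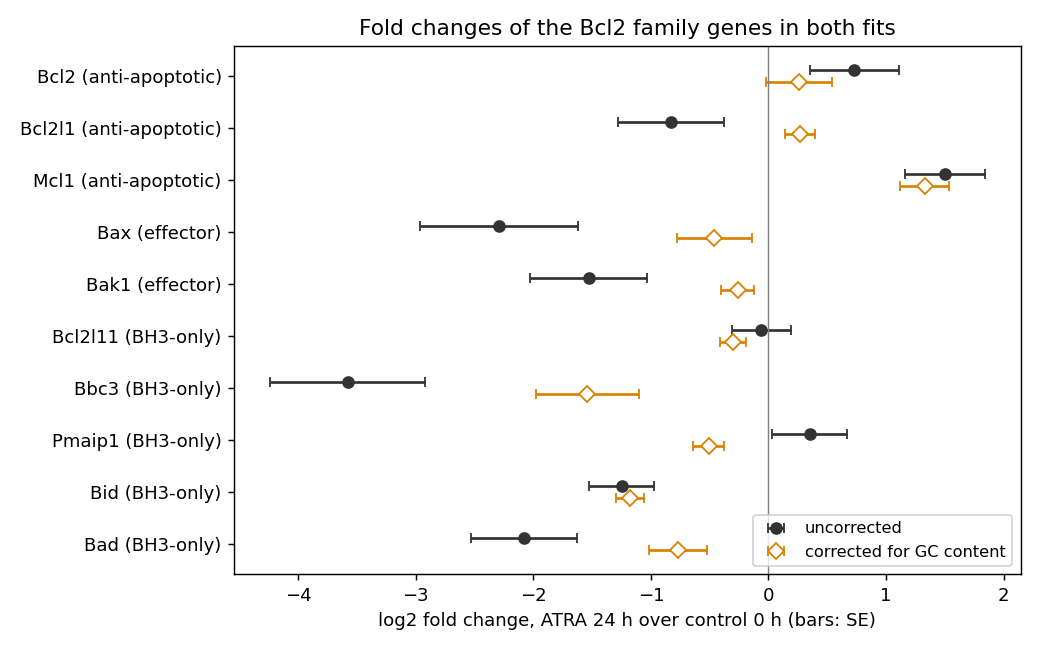
Log2 fold changes, ATRA over control, of the 10 genes with bars of 1 SE (n = 2 against 2), without (black) and with (orange) correction for GC content. Mcl1 (1.50 and 1.33) and Bid (−1.25 and −1.18) differ little between the fits, while Bax is at −2.29 and −0.46 and Bcl2l1 and Pmaip1 change sign.

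Across the 10 genes the uncorrected log2 fold change followed the GC content of the longest coding transcript, from 42.1% in Pmaip1 to 65.2% in Bbc3, with a Spearman's rho of −0.903 (n = 10 genes that share the same 4 libraries, given as a description). The comparison of ATRA replicate 2 with replicate 1, which involves no control, followed it too, with a rho of −0.770 for their log2 ratio. After correction the rho of the fold changes was −0.394. The pro-apoptotic genes had the higher median GC content, 57.1% over 7 genes, against 48.7% over the 3 anti-apoptotic ones. The 2 sets interleaved, with medians of 60.3% for the effectors and 50.4% for the BH3-only genes. Pmaip1 was the lowest of the 10, and Bcl2l1 (55.9%) lay above Bid (50.4%) and Bcl2l11 (48.0%). For Bax, Bak1, Bcl2 and Bcl2l1 the uncorrected fold change lay within 0.27 of the median of genes of like GC content. Mcl1 lay 1.31 above that median, and Bid and Bbc3 lay 1.22 and 1.48 below it. The other BH3-only genes, Bad, Pmaip1 and Bcl2l11, differed from it by −0.77, −0.53 and −0.35.

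**Figure D3:**
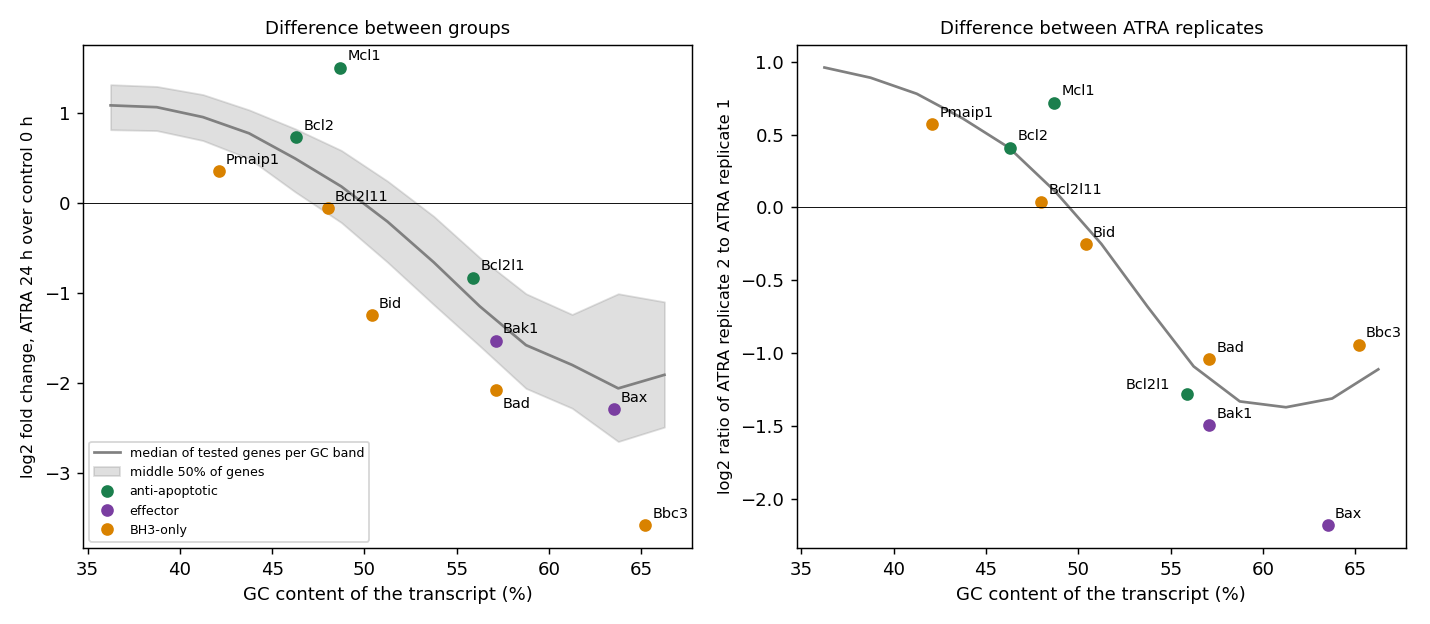
Left, log2 fold change of each gene against the GC content of its transcript (percent), with the median (line) and the middle 50% of tested genes in bands of GC content (shading). Right, ATRA replicate 2 over replicate 1 (log2 ratio). On the left, Mcl1 lies above the line, the BH3-only genes lie below it (Bid and Bbc3 furthest), and Bax and Bak1 lie near it.

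Levels were compared between genes per length as TPM without GC correction, with counts divided by the length of the union of each gene's exons and scaled to the same sum in each library. With ATRA, Mcl1 was at 1810 ± 485 TPM (mean ± SD, n = 2) and above all other members in both libraries. The 6 genes after it in the order of means, from Bax at 113 ± 107 TPM to Bid at 34.4 ± 7.04 TPM, overlapped each with the next. Bad, Bcl2 and Bbc3 were the lowest, at 3.15 ± 1.77, 3.02 ± 0.361 and 1.51 ± 0.784 TPM. In the controls Mcl1 was again highest, at 622 ± 21.8 TPM, followed by Bax at 512 ± 24.2 TPM, Bak1 at 145 ± 10.9 TPM, Bid at 78.2 ± 0.230 TPM and Bcl2l1 at 67.8 ± 4.76 TPM. Pmaip1, Bcl2l11, Bbc3, Bad and Bcl2 came next, the last at 1.75 ± 0.446 TPM. Bbc3 and Bad were the neighbours in this order whose replicates overlapped. Mcl1 made up 95.9% and 98.8% of the summed anti-apoptotic TPM in ATRA replicates 1 and 2, against 89.2% and 90.6% in control replicates 1 and 2. After GC correction the share was 95.6% and 97.5% with ATRA, against 93.2% and 93.6% in the controls. The ratio of Bax to Mcl1 was 0.128 and 0.0171 with ATRA, against 0.816 and 0.830 in the controls, and after GC correction 0.174 and 0.0631 with ATRA, against 0.303 and 0.440 in the controls.

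The summed pro-apoptotic TPM divided by the summed anti-apoptotic TPM was 0.268 and 0.0935 in ATRA replicates 1 and 2, against 1.25 and 1.21 in control replicates 1 and 2. After GC correction the ratio was 0.316 and 0.149 with ATRA, against 0.697 and 0.809 in the controls. Corrected ratios can be compared between libraries only, since the correction sets every library to a shared mean GC trend. The ratio was lower with ATRA in both forms, with no overlap between the groups, but an exact two-sided permutation test of 2 against 2 libraries cannot give a p below 0.333. With Mcl1 left out it was 6.56 and 8.10 with ATRA, against 11.6 and 13.0 in the controls, and after GC correction 7.19 and 5.94 with ATRA, against 10.2 and 12.7 in the controls. The ratio of Bax to Bcl2 was 68.0 and 11.2 with ATRA, against 240 and 370 in the controls. After GC correction it was 92.9 and 50.4 with ATRA, against 80.2 and 177 in the controls, and the groups overlapped. The correction also moved the control replicates of Bax apart, to 77.2 and 115 CPM. These ratios are of RNA and hold no information on the proteins.

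**Figure D4:**
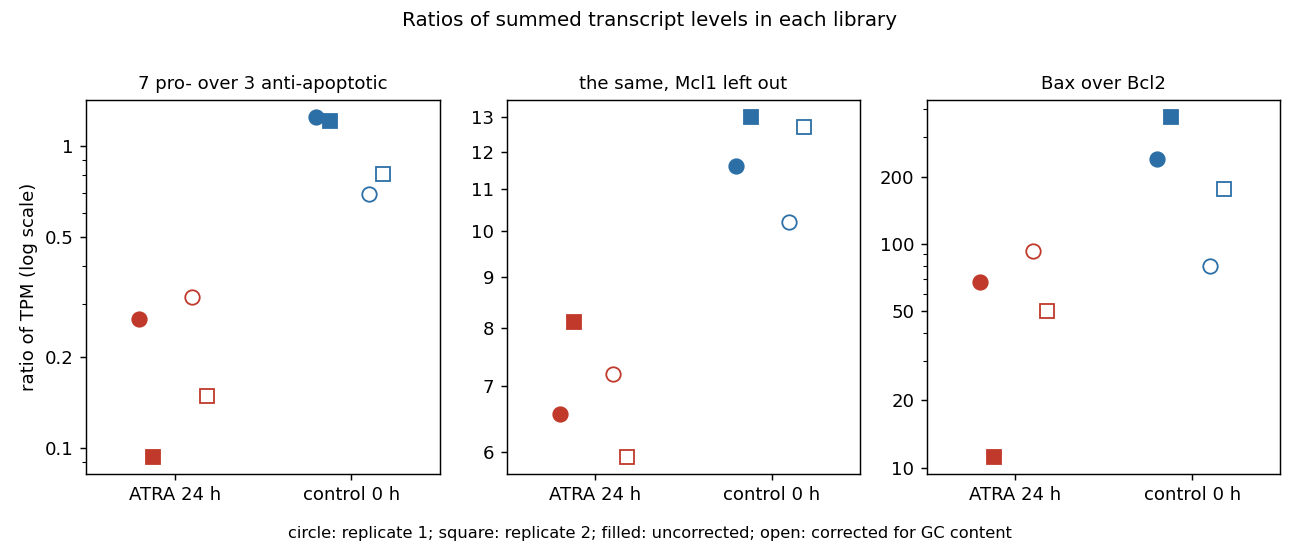
Ratios of TPM (log scale) in the ATRA libraries (red, left) and the 0 h controls (blue, right), for the 7 pro- over the 3 anti-apoptotic genes, the same without Mcl1, and Bax over Bcl2. Circles are replicate 1, squares replicate 2, filled symbols uncorrected and open symbols corrected for GC content. The groups stay apart in the first 2 panels and overlap for Bax over Bcl2 after correction.

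Other genes of the family and of the pathway around it gave 0 calls without GC correction. With it, 16.2% of all genes were called. Of 17 further genes named in the Bcl2 family, 11 were tested, with a median log2 fold change of 0.01. After GC correction 2 of the 11 rose and 0 fell, near the share of all genes: Bmf, a BH3-only gene (1.10 ± 0.21, edgeR adjusted p = 0.0318, against 0.38 without correction), and Bcl2l2, which encodes the anti-apoptotic Bcl-w (0.90 ± 0.18, edgeR adjusted p = 0.0344, against 0.32). Bnip3l, a mitophagy receptor and the most abundant by the mean of the 4 libraries (Bcl2l13 was higher in both controls), was at 138 and 248 CPM with ATRA, against 82.9 and 85.2 CPM in the controls (1.20, edgeR adjusted p = 0.0791, and 0.28 after GC correction). Of 14 apoptosome and caspase genes, 2 rose and 0 fell after correction, against 16.2% of all genes called. Casp8, the initiator caspase of death receptors that cleaves Bid, was at 24.5 and 37.9 CPM with ATRA, against 12.5 and 12.1 CPM in the controls, and rose after correction (0.90 ± 0.17, edgeR adjusted p = 0.0335, against 1.34 with 0.0709 uncorrected). Apaf1, the scaffold of the apoptosome, rose by 0.43 ± 0.10 (edgeR adjusted p = 0.0446, against 0.93 with 0.0784).

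Of 6 inhibitor of apoptosis genes, 9 death receptor genes and 12 regulators of Bcl2 family proteins, 0 passed in either fit, with 2, 0 and 2 at an unadjusted p under 0.05 in edgeR without correction, where 41.7% of all genes were, and 1, 1 and 3 with it, where 38.2% were. Their most abundant members were Birc6 (log2 fold change 0.40, or −0.05 after GC correction), Tnfrsf10b (0.36, or 0.23) and Huwe1, a ubiquitin ligase of Mcl-1 (0.18, or −0.04). Of 16 tested genes of the p53 pathway, 0 passed without correction, with 12 at an unadjusted p under 0.05 in edgeR, against 41.7% of all genes. After correction 3 rose and 3 fell, 6 of 16 genes, against 16.2% of all genes. The p53 targets Phlda3 (1.18 ± 0.19) and Perp (0.60 ± 0.11) rose (Phlda3 was at −0.76 without correction), and Gtse1 (−1.06 ± 0.17) and the nuclease gene Aen (−0.62 ± 0.12) fell (edgeR adjusted p from 0.0245 to 0.0321 for Phlda3, Perp and Aen, and 0.0240 for Gtse1). The most abundant member, Ccng1, was at 1.22 uncorrected and 0.23 corrected, and did not pass.

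The pattern over the 4 libraries most like that of Bbc3, the member with the smallest unadjusted p without correction, was that of 1190005I06Rik, at a root mean square distance of 0.103 in centred log2 CPM. Gm16861, at 0.158, and the ribosomal protein gene Rpl36, at 0.160, came next. Their GC contents were 64.9%, 55.5% and 60.8%, and their log2 fold changes −3.69, −3.33 and −3.22 without correction and −1.69, −2.28 and −1.40 with it. The likeness of the uncorrected fold changes to that of Bbc3 follows from this choice of genes. Counts in ATRA replicates 1 and 2 were 8 and 3 for 1190005I06Rik, 19 and 8 for Gm16861 and 48 and 14 for Rpl36.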

How the data were processed

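The authors deposited whole-number read counts per gene symbol for each library, not normalized. HTSeq 0.6.0, TopHat2 2.0.7, Cuffdiff 2.0.2, Cufflinks 2.0.2 and mm10 appear in the submitters' processing notes without a stated role. Neither the strand setting nor the annotation is given in the sources used here. The 5 summary lines per table were left out of library sizes, and the no-feature line held 64.7% and 66.2% of reads in the ATRA libraries, against 63.4% and 63.9% in the controls. Symbols were matched to GENCODE M21 (GRCm38), 21785 directly, 1249 through an older symbol and 386 not at all.

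The test was that of edgeR 4.0.16 under R 4.3.3 (default expression filter, TMM factors, robust quasi-likelihood fit of the newer edgeR method, F test of ATRA against control, no covariate, Benjamini-Hochberg adjustment, threshold 0.05). CPM use TMM-scaled library sizes. Each SE was obtained as the absolute log2 fold change over the root of its F value. The GC correction took each library's log2 CPM deviation from the gene's mean over the 4 libraries (prior count 2, genes with a mean log2 CPM above 1). The deviation was fitted on the GC content of the longest coding transcript (a natural spline with 5 degrees of freedom, robust regression in MASS 7.3.60.0.1). The fitted values entered edgeR as offsets. Corrected CPM and TPM are the uncorrected values divided by the fitted deviation. The biological coefficient of variation was 15.4% with the correction and 28.3% without it. Alternatives were DESeq2 1.42.0, its size factors, no filter, a replicate block, gene length, single libraries left out and, chosen after seeing the data, the quasi-likelihood fit of earlier edgeR versions. Only the uncorrected edgeR fit was run on simulated counts. These carried no GC trend and had the lower variation of the GC-corrected fit, so the corrected fit was not tested in this way.

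The 10 genes and the other lists were chosen with earlier results of these data known. Genes named from the lists are the called members with the smallest p, at most 4, or the most abundant tested member where none was called. The upper limit behind a count of 0 (3 counts) was 0.0968 to 0.271 CPM on library sizes before TMM scaling, for counting error only.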

Additional observations from a re-analysis of the deposited data

How the results depend on the processing

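Without GC correction, 161 of all genes (103 higher, 64.0%) and 0 of the 10 family genes passed. With DESeq2 size factors the counts were 603 (38.5% higher) and 1, with DESeq2's own test 4350 (40.9% higher) and 6, and with no filter on low counts 174 and 0. GC correction gave 2308 (52.6% higher) and 2. The quasi-likelihood fit of earlier edgeR versions gave 86 and 0, and with GC correction 2379 and 2. With the replicate number as a block the counts were 4401 (30.7% higher) and 6, and with the block and GC correction 2637 and 3. No label says what the number marks, and same-numbered libraries deviated together with a correlation of 0.183 (−0.0346 after GC correction) over 2 pairs, so the block was not used. With a single library left out, all-gene counts were between 125 and 10289 and family counts between 0 and 8, and with GC correction between 25 and 6653 and between 0 and 5 (a single remaining library was taken to vary as the other group does). Without ATRA replicate 1 the counts over all genes and the family were 10289 (69.0% of all genes) and 8, without ATRA replicate 2 7302 (48.9%) and 6, without control replicate 1 125 (0.874%) and 0, and without control replicate 2 662 (4.59%) and 2. After GC correction, leaving out ATRA replicate 2 gave 5030 (33.7%) and 4, and leaving out control replicate 1 gave 35 (0.245%) and 0. The causes were not tested.

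The signs of Mcl1 (1.00 to 1.80) and Bid (−1.40 to −1.11) held under all 16 alternatives, 9 of which called each gene. Those of Bcl2, Bax, Bak1, Bcl2l11, Bbc3 and Bad held too, at between 1 and 5 calls. Bcl2l1 (−0.83) and Pmaip1 (0.35) turned in all 7 fits with GC correction, and each was called in 3 of the 16 alternatives, in both directions. Bcl2l1 was then at 0.27, at 0.26 with the block, at 0.27 with the earlier edgeR fit and between 0.16 and 0.38 with a library left out (0.28 and 0.23 without control replicates 1 and 2). Pmaip1 was then at −0.51, at −0.52 with the block, at −0.51 with the earlier edgeR fit and between −0.58 and −0.44 with a library left out (−0.52 and −0.53 without control replicates 1 and 2). With lengths of the longest coding transcript the mean pro- to anti-apoptotic ratio was 0.231 with ATRA and 1.55 in the controls, against 0.181 and 1.23 by exon union. Bbc3, with 14 and 5 counts, and Bad, with 36 and 12, rest on few reads in the ATRA libraries.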
